A study of Mus musculus with 2 samples.

Results

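The 9 genes described here encode the ligand TGF-beta 1 (Tgfb1), its receptor chains (Tgfbr1 and Tgfbr2), the SMAD proteins that carry the signal (Smad2, Smad3 and Smad4), the inhibitory SMAD (Smad7) and the co-repressors Ski and Skil. They were chosen by symbol for their known place in the pathway, and all 9 were found among the 31053 genes of the count files. Single-cell RNA counts came from natural killer (NK) cells of the spleen of C57BL/6 mice, flow sorted for surface CD27 and CD11b; ages are not given in the sources used here. The control group has the genotype EP3F/F, in which Ptger3, the gene of the prostaglandin E2 receptor EP3, is flanked by loxP sites. The knockout group, NKp46CreEP3F/F, has these floxed alleles too, plus a Cre recombinase under NKp46 (gene Ncr1), so deletion is limited to cells that have expressed it. Cells of 2 mice were pooled into 1 library per genotype, so no test can be made and no value carries a spread between animals.

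TGF-beta binds the type II receptor TGFBR2, which phosphorylates the type I receptor TGFBR1. TGFBR1 then phosphorylates SMAD2 and SMAD3, which enter the nucleus with SMAD4. SMAD7 blocks the receptor, SKI and SKIL hold SMAD complexes in a repressed state, and Smad7 and Skil are themselves induced by the pathway. In NK cells TGF-beta is known to restrain maturation and cytotoxicity and to favour features of type 1 innate lymphoid cells (ILC1), a related tissue-resident type.

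The promoters of Tgfb1, Smad3 and Tgfbr2 are shown because these 3 genes had unlike patterns over the cell classes: Tgfb1 was highest in myeloid cells, Smad3 was lowest there, and Tgfbr2 varied with NK maturation. The RefSeq table matched 5 of the 9 members. Each window is the 250 bases before the start site, from RefSeq with build GRCm38.p6, 5′ to 3′ on the gene's strand. Capitals mark matches on either strand to the letters of the SMAD box (CAGAC) or the GC box (GGGCGG).
Tgfb1, chr7:25686752-25687001, plus strand: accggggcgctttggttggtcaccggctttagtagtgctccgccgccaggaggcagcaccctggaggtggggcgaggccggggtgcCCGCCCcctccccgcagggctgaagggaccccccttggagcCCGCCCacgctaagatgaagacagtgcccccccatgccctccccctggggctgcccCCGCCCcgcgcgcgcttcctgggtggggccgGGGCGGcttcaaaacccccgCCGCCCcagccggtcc
Smad3, chr9:63757995-63758244, minus strand: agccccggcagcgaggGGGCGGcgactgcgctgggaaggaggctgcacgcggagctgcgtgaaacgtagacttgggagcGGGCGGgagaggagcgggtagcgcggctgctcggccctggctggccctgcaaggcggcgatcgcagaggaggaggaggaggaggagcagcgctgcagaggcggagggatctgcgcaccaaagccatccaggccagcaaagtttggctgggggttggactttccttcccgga
Tgfbr2, chr9:116175364-116175613, minus strand: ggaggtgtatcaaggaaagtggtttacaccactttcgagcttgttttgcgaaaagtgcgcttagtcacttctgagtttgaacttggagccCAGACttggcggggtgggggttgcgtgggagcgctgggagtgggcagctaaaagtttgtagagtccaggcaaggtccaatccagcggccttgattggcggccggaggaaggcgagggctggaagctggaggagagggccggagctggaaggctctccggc
The Tgfb1 window held 5 GC boxes, the Smad3 window 2 and the Tgfbr2 window 0, and 32.7% of all 32851 promoter windows of this length held at least 1. The SMAD box stood once in the Tgfbr2 window, at -160 from the start, and in 42.2% of all windows. The letters of the RUNX core (TGTGGT, in 14.0% of all windows), of the PU.1 core (GAGGAAGT, 2.44%) and of the T-box core (GGTGTGA, 3.33%) stood in none of these 3 windows. A match to letters is not a binding site.

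In the control 11785 barcodes carried 69853026 UMIs (unique molecular identifiers, each a counted transcript molecule), and in the knockout 10615 carried 42795121, or medians of 5641 and 3745 per barcode. The libraries shared 33 barcode sequences. Ptger3, the targeted gene, had 19 UMIs over all control barcodes and 0 over all knockout barcodes, although whether the counted 3' tags lie in the deleted part is not given. Cells were sorted into classes by how many of a set of marker genes had a UMI. NK cells numbered 10303 (control) and 8894 (knockout), with Ncr1 at 792 and 825 CPM (UMIs per 1000000 of the class). Transcripts of the 2 sorting markers were present in them, Cd27 at 137 and 160 CPM and Itgam, the gene of CD11b, at 154 and 94.0 CPM. The other classes were small, although the sort was for NK cells: 33 and 51 ILC1-like cells, 40 and 131 T cells, and 40 and 142 myeloid cells, with control first.

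Marker levels in the classes were as follows. Ncr1, Klrb1c, Eomes, Cd3e and C1qa are themselves markers of the gates. Their levels are therefore set in part by the gates and are no independent check of the classes. ILC1-like cells, gated on a UMI of Ncr1 or Klrb1c, had Ncr1 (878 and 958 CPM) with less Eomes, a factor of NK identity, than NK cells (161 and 78.8 CPM against 351 and 300). T cells held Cd3e at 467 and 512 CPM and Ncr1 at 30.4 and 23.2, but also the NK receptor gene Klrb1c at 262 and 464. The 8 T cell markers summed to 148 and 149 CPM in ILC1-like cells, against 32.3 and 55.9 in NK cells. The 11 ILC1 markers summed to 1560 and 2231 CPM in ILC1-like cells and to 1628 and 1550 in T cells. The ILC1-like and T classes are thus not cleanly apart, and the part of this in their values was not tested. Myeloid cells were led by macrophage genes such as C1qa (2746 and 3834 CPM) and had a median of only 1219 and 1416 UMIs per cell against 5833 and 3839 in NK cells. Markers of B and dendritic cells summed to 6048 and 10956 CPM there, so the class is not pure, and their part in its values was not tested. The summed counts behind it are 61182 control and 249369 knockout UMIs. All intervals given are at 95% and cover counting error only. Fewer transcripts per cell and fewer expressing cells cannot be told apart in such sums.

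The ligand gene Tgfb1 was level between the genotypes and across NK maturation and was several times higher in myeloid cells. In NK cells it stood at 94.3 CPM in the control (6188 UMIs, exact Poisson interval 92.0 to 96.7) and at 93.7 in the knockout (3525 UMIs, 90.7 to 96.9). NK cells of each library were cut into 3 equal parts, or tertiles, by the share of mature marker UMIs among mature and immature ones. From the least to the most mature tertile Tgfb1 read 91.4, 97.9 and 93.6 CPM in the control and 92.5, 92.2 and 95.2 in the knockout with neighbours in that order of levels not separated by counting error. In myeloid cells it reached 474 CPM (29 UMIs, 317 to 681) and 333 CPM (83 UMIs, 265 to 413). That is 5.03-fold the NK level in the control (log2 2.33, 1.75 to 2.85) and 3.55-fold in the knockout (log2 1.83, 1.496 to 2.14). With no limit on NK markers in the myeloid gate the log2 differences were 0.56 and 0.86, and with a stricter cell filter, which left 1 control and 15 knockout myeloid cells, they were 3.10 and 1.39. Under the main gate myeloid cells were the highest class for Tgfb1 in both libraries, with no overlap of their intervals with those of any other class. T cells read 79.7 and 83.5 CPM and ILC1-like cells 50.9 and 108 CPM, from 12 and 26 UMIs. The difference between the libraries in ILC1-like cells had a counting interval of 0.05 to 2.20 on the log2 scale.

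Both receptor genes were counted in NK cells by many UMIs and in the small classes by few. Tgfbr1, the type I chain with the kinase that acts on SMADs, stood at 26.5 CPM in control NK cells (1736 UMIs) and 23.3 in knockout NK cells (876 UMIs). Over the tertiles, from least to most mature, it read 26.3, 27.2 and 26.0 CPM in the control and 25.6, 22.4 and 22.2 in the knockout. In both libraries the interval of the difference between the outer tertiles held 0. In myeloid cells Tgfbr1 stood at 131 CPM from 8 UMIs and 48.1 CPM from 12, which is 4.94-fold (log2 2.31, 1.09 to 3.29) and 2.07-fold (log2 1.05, 0.09 to 1.86) the NK level. With no limit on NK markers in the gate these were log2 0.60 and 0.33. T cells gave 11.4 CPM from 3 UMIs and 20.1 from 13, and ILC1-like cells 25.4 from 6 and 29.0 from 7.

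Tgfbr2, the chain that binds the ligand first, was somewhat higher in less mature NK cells. It read 64.0, 61.7 and 54.9 CPM from the least to the most mature tertile in the control, and 53.5, 48.3 and 46.3 in the knockout. The least mature tertile lay above the most mature by log2 0.22 (0.11 to 0.33) in the control and 0.21 (0.04 to 0.37) in the knockout. With cells thinned to 2000 UMIs they were 0.12 and 0.12, and with the cut made on mature markers alone 0.11 and 0.11. All these differences are under 0.32 on the log2 scale, a 1.25-fold change, which is the size used throughout to call a gene higher or lower. ILC1-like cells stood at 72.1 and 62.2 CPM (17 and 15 UMIs), with intervals that hold the NK level. T cells read 91.1 CPM from 24 UMIs in the control and 40.2 from 26 in the knockout. Myeloid cells of the control held 2 UMIs (32.7 CPM, 3.96 to 118) and those of the knockout 35 (140 CPM, 97.8 to 195). Tgfbr2 in the T and myeloid classes therefore had no common order over the libraries.

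**Figure D1:**
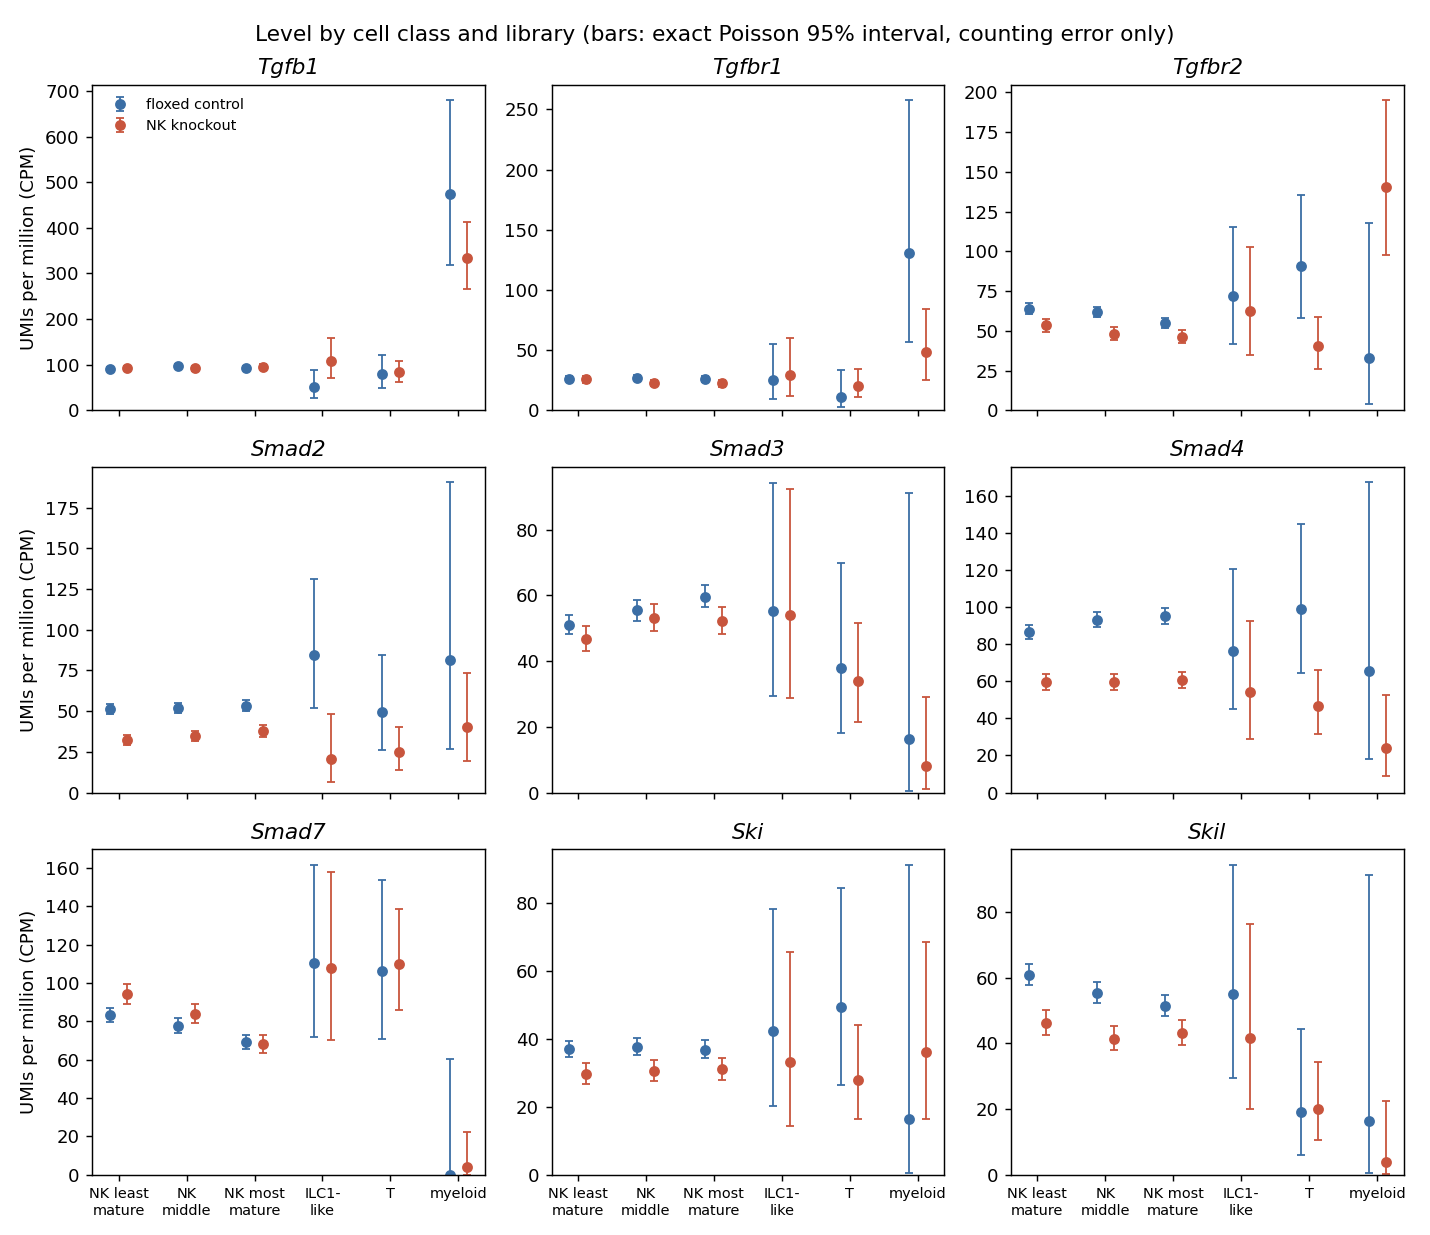
Each panel plots the level of 1 gene in CPM (linear axis from 0, scaled to the gene) in 6 cell classes, with control cells in blue, knockout cells in red and bars for the exact Poisson 95% interval of counting error. Tgfb1 stands at 474 and 333 CPM in myeloid cells, where Smad7 had 0 and 1 UMI, and the points of Smad2 and Smad4 are lower in the knockout in each NK part.

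Of the SMADs that receptors act on, Smad3 read lowest in T and myeloid cells, though from few UMIs, while Smad2 had no such order. Smad3 stood at 55.2 CPM in control NK cells (3621 UMIs) and 50.9 in the knockout (1915 UMIs), and ILC1-like cells were close to both, at 55.1 and 53.9 CPM from 13 UMIs each. T cells read 37.9 and 34.0 CPM, log2 -0.54 (-1.60 to 0.34) and -0.58 (-1.26 to 0.02) against NK cells. Myeloid cells held 1 UMI in the control (16.3 CPM) and 2 in the knockout (8.02 CPM), log2 -1.76 (-7.06 to 0.72) and -2.67 (-5.71 to -0.81). With no limit on NK markers in the myeloid gate Smad3 stood at 56.6 and 49.5 CPM there, log2 0.036 and -0.042. In NK cells Smad3 was slightly lower in the least mature tertile, at 51.0 against 59.6 CPM in the most mature of the control (log2 -0.22, -0.34 to -0.11) and 46.6 against 52.3 in the knockout (log2 -0.16, -0.33 to 0.00). This order is opposite to that of Tgfbr2.

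Smad2 read 51.3, 51.8 and 53.5 CPM over the control tertiles, least mature first, and 32.1, 34.5 and 37.5 over those of the knockout. The intervals of the 2 libraries did not overlap in any tertile. In the knockout the least mature tertile was lower than the most mature by log2 -0.22 (-0.42 to -0.03), and in the control the difference was -0.06 (-0.18 to 0.06). In myeloid cells it stood at 81.7 CPM from 5 UMIs and 40.1 from 10, and in T cells at 49.3 from 13 and 24.7 from 16. Each of these intervals holds the NK level of its library. ILC1-like cells stood at 84.8 CPM from 20 UMIs in the control and 20.7 from 5 in the knockout.

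Smad4, the common partner of the signalling SMADs, stood apart between the libraries by about as much as Smad2. It read 86.7, 93.1 and 95.04 CPM over the control tertiles, least mature first, against 59.7, 59.6 and 60.5 in the knockout. It was flat across NK maturation in the knockout, and in the control the least mature tertile stood at log2 -0.13 (-0.22 to -0.04) against the most mature. ILC1-like cells stood at 76.3 CPM from 18 UMIs and 53.9 from 13. Myeloid cells stood at 65.4 CPM from 4 UMIs and 24.1 from 6, log2 -0.48 (-2.36 to 0.87) and -1.32 (-2.77 to -0.20) against NK cells.

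Smad7, the inhibitor that the pathway itself induces, was the member with the clearest order over the classes: T and ILC1-like cells highest, then NK cells from least to most mature, then myeloid cells. ILC1-like cells stood at 110 and 108 CPM (26 UMIs in each library) and T cells at 106 and 110 CPM (28 and 71 UMIs). Over the NK tertiles, least mature first, the control read 83.2, 77.7 and 69.2 CPM and the knockout 94.2, 83.9 and 68.1. Each step between neighbouring tertiles had an interval above 0, while the steps among ILC1-like cells, T cells and the least mature tertile had intervals that held 0. Against NK cells as a whole, ILC1-like cells were at log2 0.52 (-0.10 to 1.07) and 0.38 (-0.23 to 0.94), and T cells at 0.46 (-0.13 to 0.997) and 0.41 (0.05 to 0.75).

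Myeloid cells held 0 Smad7 UMIs in the control and 1 in the knockout. In the control this puts them at least 1.57-fold lower than NK cells, against a floor of 3 UMIs over the class (49.0 CPM). In the knockout the level was 4.01 CPM against 82.6 in NK cells, log2 -4.37 (-9.67 to -1.89), which became -0.48 with no limit on NK markers in the gate. No other member had a count of 0 in any class.

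Within NK cells the least mature tertile exceeded the most mature in Smad7 by log2 0.26 (0.17 to 0.36) in the control and 0.47 (0.34 to 0.60) in the knockout. When each library was cut into 6 parts, the control went from 83.4 CPM in the least mature sixth to 64.9 in the most mature, with a small step up in the fourth (79.8 after 75.5), and the knockout was lower at every step, from 96.7 to 62.1. Cells were also thinned to 2000 UMIs, with cells of fewer UMIs left out and the gates and the cut made anew. The differences between the outer tertiles were then 0.08 and 0.34, and with the cut made on mature markers alone they were 0.20 and 0.26. Markers of T cells moved the same way, from 19.996 CPM summed over 8 genes in the most mature to 47.7 in the least mature control tertile and from 35.9 to 73.9 in the knockout, against 3054 and 3762 in the T class itself. Their part in the Smad7 order was not tested. Over all NK cells the 8 T cell genes had 2118 UMIs in the control and 2103 in the knockout, of which Cd3e had 0 and 7. The NK gate admits at most 2 T cell marker genes.

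**Figure D2:**
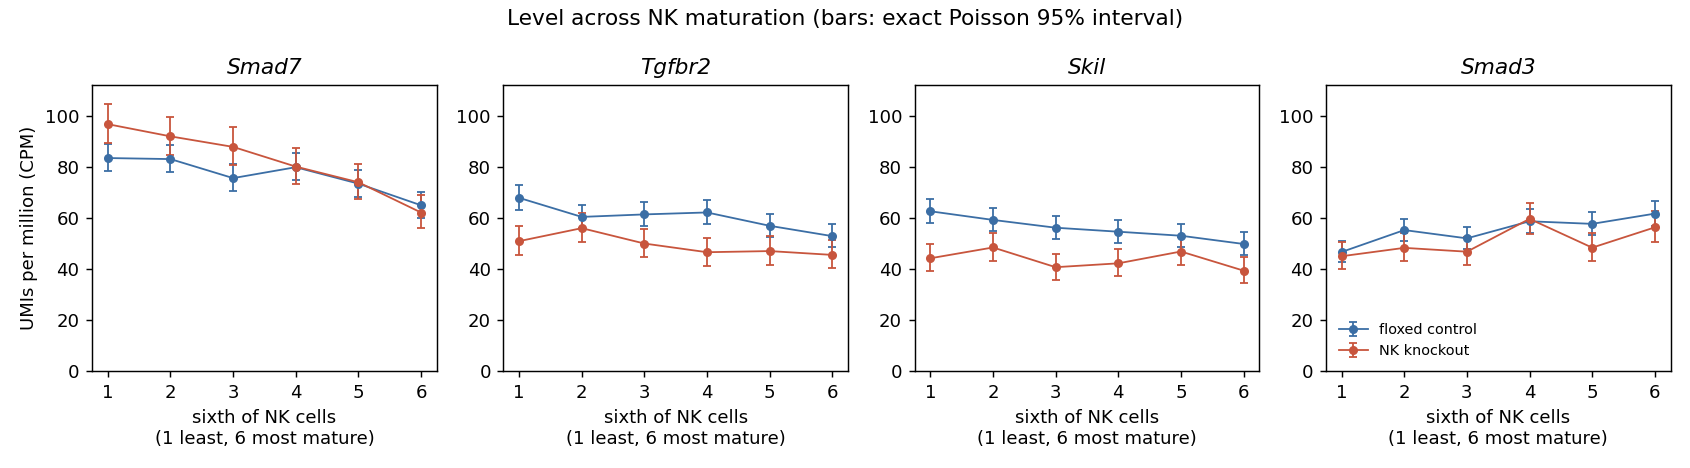
The level of 4 genes in CPM (axes from 0) is plotted over 6 equal parts of the NK cells of each library, ordered by maturation share from least (1) to most mature (6), with exact Poisson 95% intervals. Smad7 goes from 83.4 to 64.9 CPM in the control and from 96.7 to 62.1 in the knockout, Tgfbr2 and Skil lie lower in the knockout, and Smad3 goes the other way with 46.6 to 61.6 CPM in the control.

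The co-repressor genes differed from each other outside NK cells. Skil read 60.8, 55.3 and 51.4 CPM over the control tertiles, least mature first, and 46.3, 41.4 and 43.1 in the knockout. The outer tertiles differed by log2 0.24 (0.13 to 0.36) in the control and 0.10 (-0.07 to 0.28) in the knockout. In T cells it was well under the NK level, at 19.0 CPM from 5 UMIs and 20.1 from 13, log2 -1.56 (-3.19 to -0.34) and -1.14 (-2.05 to -0.36). Myeloid cells held a single Skil UMI in each library, log2 -1.78 (-7.08 to 0.70) and -3.46 (-8.76 to -0.98). Skil and Smad7, both induced by the pathway, thus stood on opposite sides of the NK level in T cells. Ski was flat, at 36.9, 37.6 and 36.8 CPM over the control tertiles and 29.7, 30.5 and 31.0 over those of the knockout, and its level in T, ILC1-like and myeloid cells could not be told from that of NK cells at this depth.

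Counted over the 9 members, 0 were past log2 0.32 in the same direction in both libraries between the least and the most mature tertile, in either direction. Of 6963 measured genes, 2.1% were past that size upwards and 1.87% downwards. In ILC1-like cells 1 member, Smad7, was higher than in NK cells in both libraries (10.7% of measured genes were) and 0 were lower (8.28%). In T cells 1 member, Smad7, was higher (9.8%) and 2, Smad3 and Skil, were lower (22.7%). In myeloid cells 2 members, Tgfb1 and Tgfbr1, were higher (20.4%) and 4, namely Smad3, Smad4, Smad7 and Skil, were lower (35.4%). Between the middle and the most mature tertile 0 members passed in either direction, against 0.618% of genes higher and 0.531% lower. Counts of 1 or 2 in 9 members are near these shares. With a stricter cell filter 0 members were higher in ILC1-like or T cells and 1 in myeloid cells, and with no limit on NK markers in the myeloid gate 0 were lower there. Of the 45 neighbouring pairs in the order of 6 classes for each of 9 members, the interval of the step lay above 0 for 9 in the control and 7 in the knockout.

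Smad2, Smad4 and Smad7 lie on chromosome 18 in the GRCm38 annotation (GENCODE M21), at 76241580 to 76310963, 73639009 to 73703780 and 75367529 to 75395935. Tgfbr2 (116084293 to 116175360) and Smad3 (63646767 to 63757994) lie on chromosome 9, and Tgfbr1 (47353222 to 47414931) and Ski (155154075 to 155222592) on chromosome 4. Tgfb1 lies on chromosome 7 (25687002 to 25705077) and Skil on chromosome 3 (31095058 to 31122577).

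The comparison of genotypes asks whether loss of EP3 from NK cells goes with a change in this pathway. In NK cells 3 of 9 members were lower in the knockout by at least log2 0.32, namely Smad4, Smad2 and Skil, and 0 were higher. Of 7328 measured genes, those with a mean of at least 10 CPM, 29.2% were lower by that size and 14.8% higher. A count of 3 in 9 is near that share, and it was 2 under median-of-ratios scaling or the stricter cell filter. Marker sums in NK cells also differed between the libraries: from control to knockout, 5 erythroid genes summed to 24.2 and 105 CPM, 8 T cell genes to 32.3 and 55.9, 13 myeloid genes to 10.6 and 18.5, 11 ILC1 genes to 59.5 and 115, and 13 mature NK genes to 4521 and 3347. Their part in the members' ratios was not tested. Knockout over control, the log2 ratio had a median of -0.28 for the 9 members and -0.07 for all measured genes, whose SD was 0.44.

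Smad4 stood at 91.4 CPM in the control (5998 UMIs, 89.1 to 93.8) against 60.1 in the knockout (2260 UMIs, 57.6 to 62.6), a log2 ratio of -0.61 (-0.68 to -0.54). Smad2 stood at 52.2 CPM (3422 UMIs) against 34.5 (1297 UMIs), log2 -0.60 (-0.69 to -0.50). Skil stood at 56.1 CPM (3679 UMIs) against 44.1 (1660 UMIs), log2 -0.35 (-0.43 to -0.26). Tgfbr2 at 60.4 against 49.5 CPM (log2 -0.29, -0.37 to -0.21) and Ski at 37.1 against 30.7 CPM (log2 -0.28, -0.38 to -0.17) lay just inside the size that calls a gene lower. Tgfbr1 (-0.18), Smad3 (-0.12) and Tgfb1 (-0.01) were closer to level, and Smad7, at 77.0 against 82.6 CPM, was the sole member above 0 (log2 0.10, 0.04 to 0.17).

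Genes with longer exons had lower ratios, so the members were also read against genes of like length. The median log2 ratio went from 0.21 in the shortest of 8 exon length classes (183 to 1945 bases) to -0.44 in the longest (9620 bases and over). The exons of the members span 3712 bases in Smad4 and 4521 in Smad7 up to 8187 in Tgfbr2, 8781 in Smad2 and 9694 in Skil. After the median of the 300 genes nearest in length was taken off each ratio, Smad4 stood at -0.64 and was the sole member still past 0.32 in size. At this adjustment 18.6% of measured genes were lower by that size and 15.7% higher. Smad2 came to -0.26, Ski to -0.13, Skil to 0.03, Tgfbr2 to 0.03, Smad3 to 0.03, Tgfbr1 to 0.06, Tgfb1 to 0.13 and Smad7 to 0.15. The median over the 9 members was then 0.03. The receptors, Smad3 and Skil thus lay within 0.1 of other genes of their length.

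**Figure D3:**
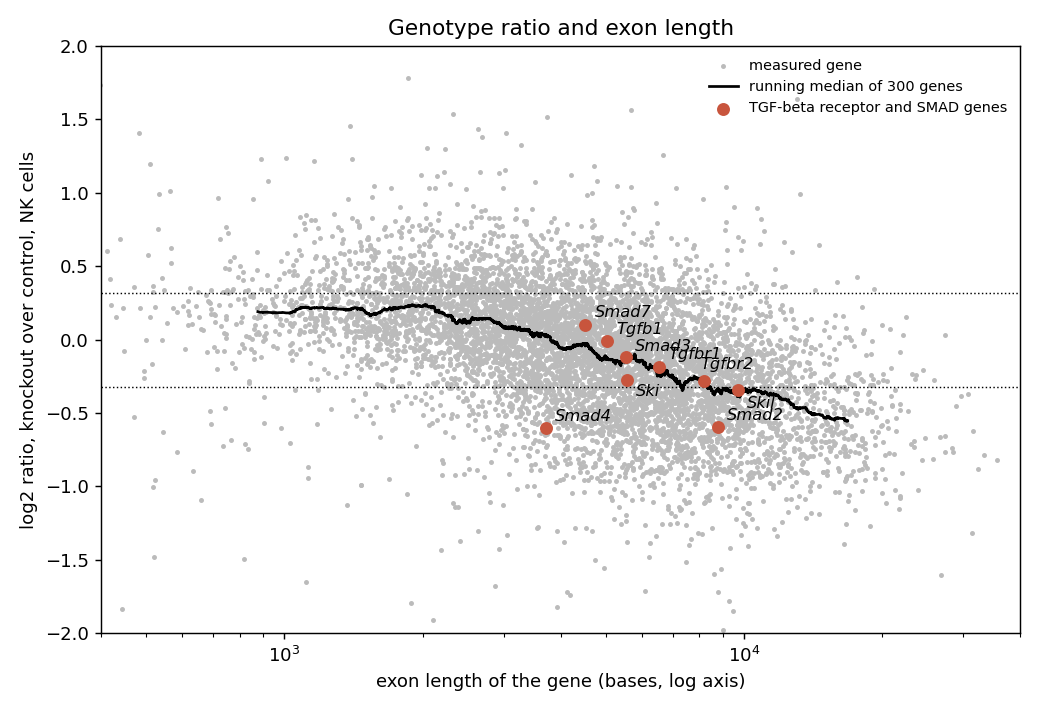
The log2 ratio of knockout over control in NK cells is plotted against exon length (log axis) for measured genes in grey, of which 30 lie outside the axes, with a running median over 300 genes in black and the 9 members in red. Dotted lines mark a log2 ratio of 0.32 in size, and Smad4, at -0.61 and 3712 bases, lies farther under the running median than the other members.

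The Smad4 and Smad2 gaps had the same direction in each NK tertile. Tertiles are cut within each library and are not matched in maturation between the genotypes. The median share was 40.3% in the control and 26.5% in the knockout in the least mature tertile, and 75.6% and 70.6% in the most mature. Smad4 was at -0.54, -0.64 and -0.65 from the least to the most mature tertile, and Smad2 at -0.67, -0.58 and -0.51. In the tertiles 3, 4 and 2 members were lower from least to most mature (29.9%, 29.6% and 30% of genes) and 0 higher (15.1%, 14.8% and 14.9%). Few members reached the minimum in the small classes. Of 4 measured in ILC1-like cells 1 was lower and 1 higher (34.2% and 21.8% of genes), of 6 in T cells 3 were lower and 0 higher (31.2% and 27.8%), and of 2 in myeloid cells 1 was lower and 1 higher (28.3% and 30.1%). T cells, where Ncr1 was low, read 98.7 against 46.4 CPM for Smad4 (26 and 30 UMIs), log2 -1.09 (-1.90 to -0.27). In T and myeloid cells summed, a step added after the values by class were seen, Smad4 stood at 92.4 CPM in the control (30 UMIs) and 40.2 in the knockout (36 UMIs), log2 -1.20 (-1.94 to -0.45), and Smad2 at 55.4 and 29.0 CPM, log2 -0.93 (-1.86 to 0.02). The median log2 ratio of the 4813 genes measured there was -0.02. In that sum 4 of the 8 members measured were lower by at least 0.32, namely Smad2, Smad3, Smad4 and Ski, as were 31% of genes. Most of these Smad4 UMIs came from T cells, and myeloid cells alone had 4 and 6 (log2 -1.44, -3.52 to 0.83). Myeloid cells gave 61182 of the 324739 UMIs of the sum in the control and 249369 of 896323 in the knockout. The sum thus mixes the 2 classes in unlike parts, and the effect of this on its ratios was not tested. The T and myeloid gates limit the number of NK markers, Ncr1 among them, so whether these cells ever expressed Cre is not known. Genotype, pool and library preparation cannot be told apart. Smad7 was level in that sum, at 86.2 and 80.3 CPM (log2 -0.10, -0.75 to 0.58), and in T cells alone (log2 0.05, -0.60 to 0.73).

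**Figure D4:**
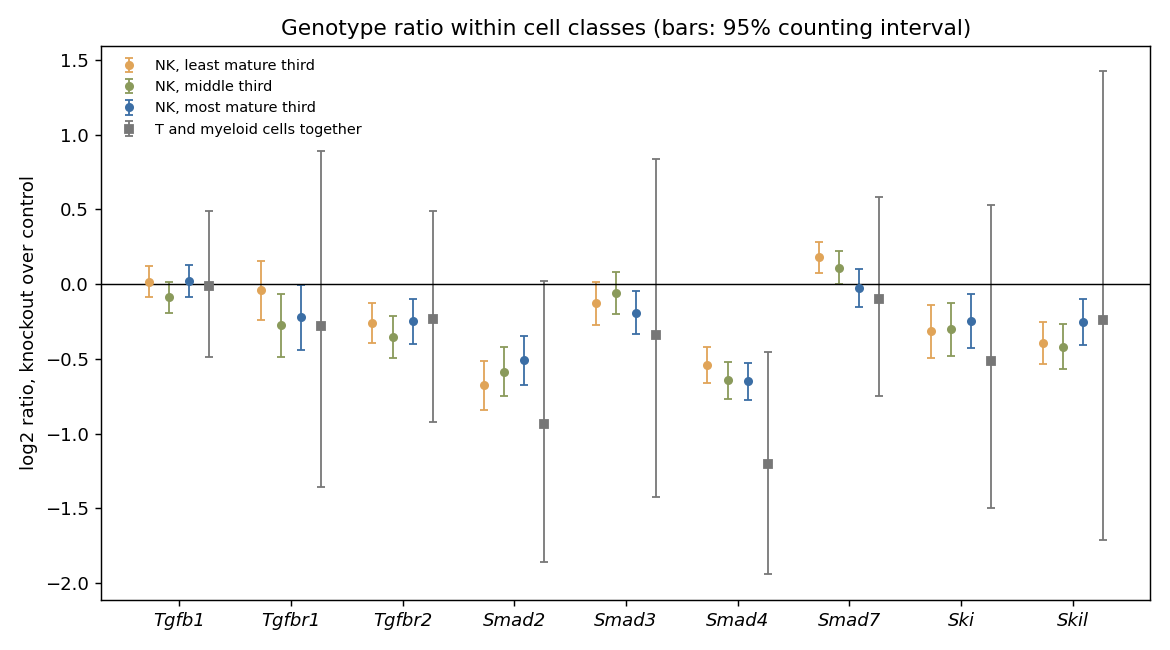
For each member the log2 ratio of knockout over control is plotted in the 3 NK parts (circles, least mature to most mature) and in T and myeloid cells together (grey squares), with bars for the 95% counting interval. Smad4 is under 0 in all 4 groups, from -0.54 to -1.20, and Tgfb1 lies close to 0 in each. The mix of T and myeloid cells in the sum differs between the libraries. In myeloid cells alone, not plotted, Tgfb1 was at -0.51 (-1.14 to 0.15).

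The wider pathway was read from 8 lists of known genes with the members left out. Of 116 genes, 56 were measured in NK cells: 25 were lower in the knockout, 6 were higher and 25 lay between, with a median log2 ratio of -0.28. Against genes of like length the median was -0.08, with 11 lower and 9 higher. The share that was lower exceeded that of all measured genes (29.2%) before adjustment and was close to it (18.6%) after. The lists were not tested.

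Among other ligands and the genes that release TGF-beta from its latent form, 3 of 18 were measured. Itgav, the integrin chain that helps free latent TGF-beta, was lower at 31.8 against 17.0 CPM (log2 -0.90, length-adjusted -0.55). Furin, the protease that cleaves the precursor, was higher at 16.5 against 23.6 CPM (log2 0.52, length-adjusted 0.86). Nrros, which tethers latent TGF-beta in myeloid cells, lay between (35.8 and 32.8 CPM). Genes under the minimum are named here after their values were seen. Gdf11, a ligand of the activin branch, had the largest gap of the ligands, at 6.39 against 1.49 CPM (419 and 56 UMIs, log2 -2.10, -2.53 to -1.70). Of the other ligand genes Tgfb3 was at 2.32 and 2.92 CPM and Tgfb2 had 3 UMIs in each library. Of 13 other receptor and co-receptor genes of the superfamily, 0 reached the minimum: Bmpr2, a receptor for bone morphogenetic proteins (BMPs), was highest at 12.6 and 6.70 CPM, Acvr2a, an activin receptor, had 5.01 and 3.56, and the co-receptor Tgfbr3 had 1.19 and 1.65. The SMADs of the BMP branch were present at low level, Smad1 at 17.8 and 14.9 CPM (log2 -0.26) and Smad5 at 21.9 and 15.3 (log2 -0.52, length-adjusted -0.20), with 1 of these 2 lower. Length-adjusted, 0 of them were lower. Of all measured genes 29.2% were lower before the adjustment and 18.6% after it.

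Of 22 SMAD regulators 17 were measured, 7 lower, 2 higher and 8 between. Length-adjusted, 3 were lower and 4 higher. Of all measured genes 29.2% were lower and 14.8% higher, and after the adjustment 18.6% and 15.7%. Zfyve16, which encodes an endosomal protein that binds SMADs, had the largest gap at 27.0 against 11.7 CPM (log2 -1.20, length-adjusted -0.94). Trim33, a ubiquitin ligase that acts on SMAD4 (-0.79, length-adjusted -0.41), Usp9x, which removes ubiquitin from SMAD4 (-0.70, -0.20), and Rnf111, a ligase that degrades SMAD7 and SKIL (-0.65, -0.31), followed. Of 16 partners and co-repressors 14 were measured, 9 lower, 1 higher and 4 between, and length-adjusted 1 was lower and 1 higher. The acetyltransferase genes Kat2b (-0.96, length-adjusted -0.84) and Ep300 (-0.69, -0.19) and the co-repressor gene Ncor1 (-0.61, -0.18) were among the farthest out before adjustment. On the branch that does not use SMADs, 2 of 9 measured genes were lower, the kinase genes Mapk14 (-0.59, length-adjusted -0.55) and Pak2 (-0.56, -0.34). The polarity gene Pard6a (0.42, 0.24) was the 1 higher, and 6 lay between, such as Traf6 (-0.30, -0.04). Length-adjusted, 2 were lower and 2 higher, the latter Rhoa (0.47) and Ppp2ca (0.34).

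Genes that go with TGF-beta in tissue ILC1 had 6 of 17 measured, 4 of them lower (29.2% of all measured genes were) and 0 higher (14.8%). These were Cd69, a retention and activation marker (95.8 against 49.8 CPM, log2 -0.94), Tnfrsf9, a co-stimulatory receptor (45.8 against 24.0, -0.93), Tbx21, the gene of T-bet (-0.40), and Entpd1, the ectonucleotidase CD39 (-0.32). Length-adjusted, Cd69 stood at -0.71, Tnfrsf9 at -1.08 and Tbx21 at -0.52, while Entpd1 came to -0.17. That left 3 lower and 0 higher, against 18.6% and 15.7% of all measured genes. Of the genes of this list under the minimum, some were higher, such as Cxcr6, a chemokine receptor gene, from 0.442 to 2.77 CPM (log2 2.65, 2.04 to 3.29), Cd200r1, an inhibitory receptor gene, from 0.640 to 1.62 (log2 1.34, 0.75 to 1.94), and Itgae, the integrin chain CD103 and a classical TGF-beta target, from 2.94 to 4.89 (log2 0.73, 0.43 to 1.03). Others were lower, such as Lag3 (log2 -1.53) and Tnfsf10 (-0.93). The list as a whole thus had no single direction. Cxcr6, Cd200r1 and Tnfsf10 are markers of the ILC1-like gate, which limits their level in NK cells. Cxcr6 stood at 106 and 228 CPM in ILC1-like cells and at 266 and 362 in T cells. The part of such cells in the NK values was not tested. Eomes, also on this list, is a marker of the NK gate and was lower in ILC1-like than in NK cells. Counts over this list are therefore no measure of pathway activity. Of 15 general target genes 5 were measured: Id2, an inhibitor of helix-loop-helix factors (1210 against 1571 CPM, log2 0.38, length-adjusted 0.26), was higher, Cdkn1b, a cell cycle inhibitor (-0.53, -0.50), was lower, and 3 lay between, among them Junb (0.18). Of all measured genes 14.8% were higher and 29.2% lower. Length-adjusted, 1 target gene was higher and 1 lower, against 15.7% and 18.6%.

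**Figure D5:**
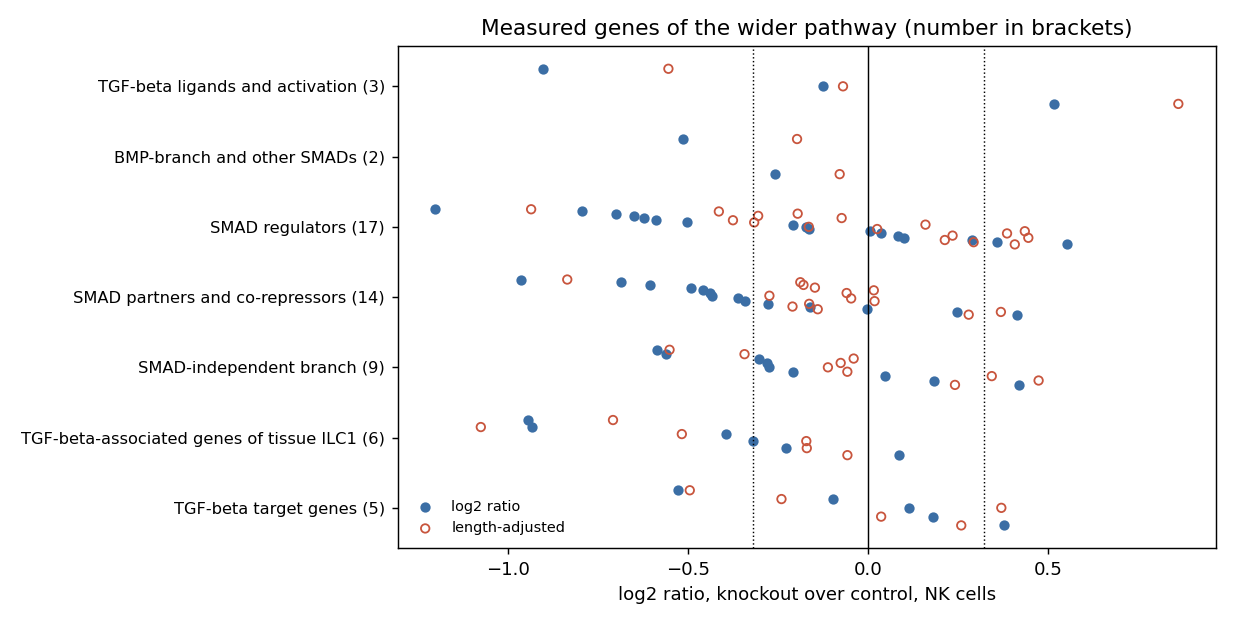
Each row holds the measured genes of 1 list, with the log2 ratio of knockout over control in NK cells as a filled blue point and the length-adjusted value of the same gene as an open red point at the same height. Dotted lines mark 0.32 in size, past which 25 genes lie on the lower and 6 on the higher side before adjustment, and 11 and 9 after it.

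The genes whose level followed that of a member most closely over the 12 points of 6 classes in 2 libraries were found by Pearson's r of log2(CPM + 10) among 1568 genes with enough counts. These points share library and depth within each genotype, and the spread over them is set largely by the small classes. Smad7 was followed by Shisa5 (r 0.99), Malat1 (0.98) and Ddx5 (0.98), and Smad3 by Jund (0.99), Btg2 (0.99) and the chemokine gene Ccl5 (0.98). Tgfb1 was followed by Nedd8 (0.98), Tuba1b (0.98) and Tmed10 (0.98), and Tgfbr1 by Hcls1, Sem1 and Pcbp1 (0.97 each). Smad4 was followed by Kmt2c (0.98) and Map4k4 (0.96), Smad2 by Acbd5 (0.96), Tnks2 (0.96) and Uba1 (0.94), and Skil by Nfkb1 (0.96), Neat1 (0.96) and Git2 (0.95). Likeness was weaker for Tgfbr2, followed by Cd164 (0.91), Gpr65 (0.86) and Morf4l1 (0.81), and for Ski, followed by Nono (0.82), Ssb (0.80) and Pabpc1 (0.79).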

How the data were processed

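The deposited matrices hold raw counts, whole numbers of UMIs per gene and barcode with no normalization. STAR, Cell Ranger 3.0.0, Seurat and the build GRCm39 are named in the submitters' processing notes. The labels' protocols give a Single Cell 3' kit. Such tags count molecules near the 3' end, so levels are not divided by length.

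Kept were barcodes that had 500 genes or more and no more than 10% of UMIs from mitochondrial genes, 10928 in the control and 10023 in the knockout. No doublet caller was run. The gate thresholds were set after the data were seen. NK cells needed 5 of 9 NK marker genes, with at most 2 T, 1 myeloid and 2 B or dendritic marker genes. ILC1-like cells needed 4 of 11 markers and a UMI of Ncr1 or Klrb1c. T cells needed 3 of 8 markers with at most 4 NK markers, and myeloid cells 3 of 13 with at most 1. The maturation share needed 10 UMIs over 26 markers, which 64 control and 230 knockout NK cells lacked. The cuts lay at 50% and 66.2% in the control and at 37.5% and 57.6% in the knockout. Within 5 points of these lay 1900, 2027, 1493 and 1343 cells.

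UMIs were summed per class and library. Intervals at 95% are exact Poisson for a level and exact conditional binomial for a ratio. With 1 library per group there is no test. A gene was measured at a mean of 10 CPM and 30 UMIs over both sides of a comparison. Members and lists were chosen with earlier results of these data known. All members were named, with up to 4 measured genes of each list by size of ratio and the 3 nearest genes per member. A few genes that this rule names are not reported here. Exon lengths and positions come from GENCODE M21, which matched 31011 of 31053 gene IDs. It is of the GRCm38 build, not the one the notes name. The log2 ratio and its interval were tested on simulated Poisson counts at the levels of the classes, without variation between animals. The gates, the maturation cut and the length adjustment were not tested in this way. Tools were Python 3.11.15 with pandas 2.3.3, numpy 2.4.6, matplotlib 3.10.9 and scipy 1.17.1.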

Additional observations from a re-analysis of the deposited data

Results flagged for a closer look

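For 2 members the 2 libraries lay on opposite sides of the NK level in a small class, each past log2 0.32; the difference between the libraries was not tested. Smad2 in ILC1-like cells was at log2 0.70 over NK cells in the control (20 UMIs) and at -0.73 in the knockout (5 UMIs), a difference of -1.44. Tgfbr2 in myeloid cells was at -0.88 in the control (2 UMIs) and at 1.502 in the knockout (35 UMIs), a difference of 2.39.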

How the results depend on the processing

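The count of members lower in knockout NK cells was 3 or 2 under the settings other than length adjustment, which left 1, and Skil turned to 0.034. Of the pathway genes 11 were lower after length adjustment, and 15 were higher at a minimum of 1 CPM. Smad4 ranged from -0.68 to -0.54 over all settings. The stricter cell filter (1000 genes, 5% mitochondrial UMIs) left 1 control and 15 knockout myeloid cells, and 0 members were then higher in ILC1-like or T cells in both libraries and 1 in myeloid cells. Under it Smad4 in control myeloid cells turned to 2.14 and in knockout myeloid cells Tgfbr2 turned to -0.49 and Smad2 to -0.99. With no limit on NK markers in the myeloid gate (191 and 395 cells) 0 members were lower there in both libraries. The myeloid values that then changed sign were, in the control, Tgfbr2 (0.22), Smad2 (-0.16), Smad3 (0.036), Smad4 (0.17) and Ski (0.33), and in the knockout Smad2 (-0.0551), Smad4 (0.0105) and Skil (0.15). Other values that changed sign, outside Skil above, had a main value under 0.32 in size. That gate admits droplets with NK transcripts. Over all settings the other 43 recomputed counts were within 1.5 times their main value. No paired analysis was possible because each group is 1 library. Depth limits every value in ILC1-like, T and myeloid cells.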

Other observations

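Entpd1, which encodes the ectonucleotidase CD39, had a steep order over NK maturation. It was picked after its values were seen. From the most to the least mature tertile it read 31.6, 14.1 and 6.06 CPM in the control and 22.7, 12.3 and 5.17 in the knockout, and myeloid cells stood at 131 and 128 CPM. Itgae went the same way at a low level, from 3.73 to 2.11 CPM and from 6.68 to 3.29. Cd69 went the opposite way, from 75.3 to 118 CPM in the control and from 34.0 to 65.4 in the knockout.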
